A study of Mus musculus with 24 samples.

Results

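Kidneys of adult Hap-I mice fed a western diet were compared with kidneys of adult C57 mice, 4 libraries against 4. These 8 libraries were chosen by their titles and group labels from the 24 of the series. Hap-I is the labels' name for mice carrying haplotype I of the human angiotensin receptor type 1, which the series title describes as hypertensive overexpressing animals. C57 is the group labelled without a receptor haplotype, and its label names no diet. Every sample carries the strain label C57/BL6, and the design text gives 4 animals for each group. The labels state no sex, exact age, length of feeding, transgene promoter or number of founder lines. Receptor line, diet and series of titles (A for Hap-I on the diet, S for C57) changed together, so their effects cannot be told apart. Groups of 4 libraries from aged Hap-I mice on western diet and from adult Hap-II mice on western diet, the line with haplotype II, entered the same fit and are given beside some values. The receptor transgene is human and has no row in the mouse gene table, so its own level was not analysed here.

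The angiotensin type 1 receptor is a G protein coupled receptor through which angiotensin II constricts vessels, raises tubular sodium reabsorption and stimulates aldosterone release. Sodium is recovered along the nephron by the proximal tubule, the thick ascending limb, the distal convoluted tubule and the collecting duct, each with its own transporters. Western diets, rich in fat and sugar, are known to load the kidney with lipid, and cholesterol lowers transcription of its own synthetic enzymes through the SREBP factors.

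All levels below are rescaled TPM (transcripts per 1e+06, divided by a factor for each library), given for libraries 1 to 4 in the order of their titles, which is no order of treatment. Changes are differences of mean log2(rescaled TPM + 1), Hap-I minus C57, with the standard error (SE) and the Benjamini-Hochberg adjusted p of limma over all genes tested. The threshold was 0.05. Such log2 changes understate those of weakly expressed genes. Depth is unknown because TPM carry no read totals. Transcript levels in bulk tissue are shares of the sample, so fewer cells of a type and less RNA per cell cannot be told apart in any result below.

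Several properties of the libraries moved with the groups. Y-linked transcripts, which mark male animals, were present in Hap-I libraries 2, 3 and 4 and near 0 in Hap-I library 1 and in all 4 C57 libraries. Transcripts of the mitochondrial genome took 30.4 ± 4.03% of TPM in Hap-I and 15.2 ± 2.13% in C57 (SD, n = 4), a difference of 15.2 percentage points that did not overlap (two-sided exact permutation test, p = 0.0286, the smallest that 70 arrangements allow). Levels also depended on transcript length. Genes were cut into 5 near-equal bins by their longest annotated transcript. In the bin of shortest transcripts (38 to 1761 bases), 32.5% of genes were called higher and 3.58% lower in Hap-I, and in the bin of longest (5054 bases or more) 7.01% were called higher and 24.6% lower. For a slope over length, each gene's log2 level was taken relative to its mean over the 16 kidney libraries. The slope of this relative level against log2 length was -0.01, -0.05, -0.08 and -0.13 in the Hap-I libraries. In the C57 libraries it was -0.09, 0.20, 0.18 and 0.19, so C57 library 1 lay among the Hap-I values. Hap-I library 4 had the smallest rescaling factor (0.528) of the 16 kidney libraries. The part of sex, length dependence and mitochondrial share in the results below was not tested. Counts with a Y-linked covariate and with trends over length and GC content removed are given beside most gene groups, and no model had the mitochondrial share as a term.

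**Figure D1:**
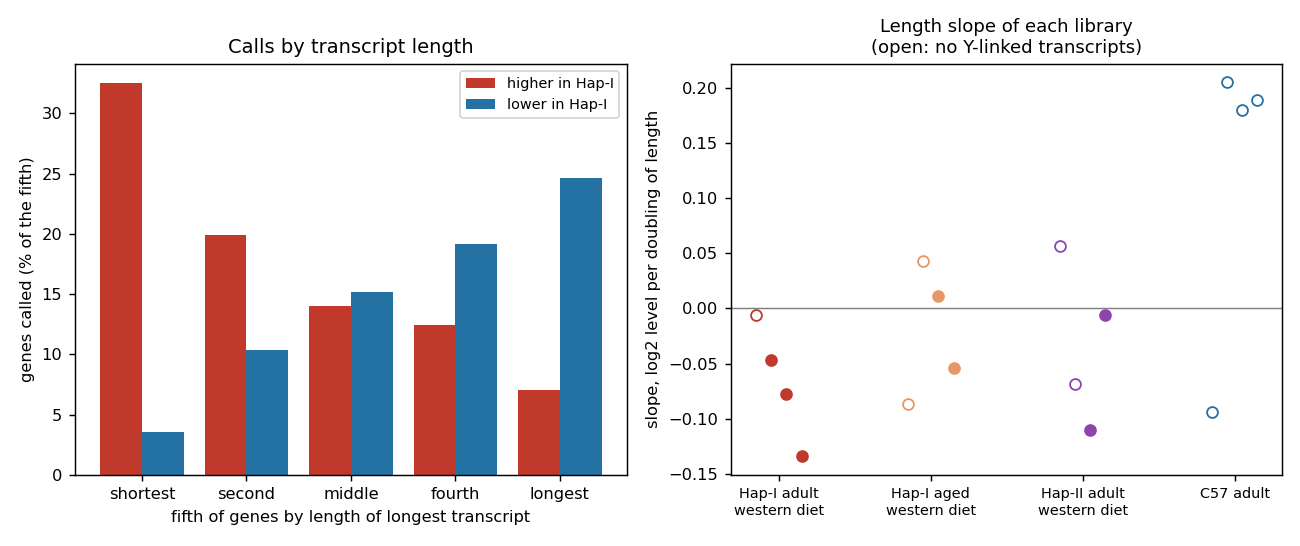
Left, share of genes called higher or lower in Hap-I on western diet than in C57, in 5 groups of genes by the length of the longest transcript. Right, slope against log2 transcript length of the log2 level relative to each gene's mean over the 16 kidney libraries. Each circle is a library, open for those without Y-linked transcripts. Calls moved from 32.5% higher in the bin of shortest transcripts to 24.6% lower in that of the longest, and C57 library 1 stood at -0.094 against 0.18 to 0.205 in the other C57 libraries.

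Kidneys of the groups differed in a large part of the transcriptome. Of 12923 genes tested, 4108 (31.8%) passed the threshold, 2228 higher in Hap-I (17.2%) and 1880 lower (14.5%). Of these, 1546 differed by at least 2-fold, 991 higher and 555 lower. The median change over all genes was -0.02. On the TPM as deposited, without rescaling, that median was -0.80 and the split was 294 higher against 7715 lower, so each direction below is relative to the median gene. With the level of 4 Y-linked genes as a covariate, 531 genes passed (306 higher, 225 lower), and with the trends over length and GC content removed, 3207 passed (1635 higher, 1572 lower).

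Genes of salt transport in the thick ascending limb and distal nephron were mostly lower in Hap-I. Of 31 tested, 18 were lower and 1 was higher, against 14.5% and 17.2% of all genes, and their median change was -1.07. Summed over the list, the level was 2790 to 3690 in Hap-I and 5530 to 6790 in C57, without overlap. Scnn1a encodes the alpha subunit of the epithelial sodium channel ENaC, the aldosterone-regulated entry path for sodium in the collecting duct. Its level was 12.3, 7.75, 7.54 and 5.38 in Hap-I and 24.6, 33.9, 35.0 and 42.2 in C57 (log2 change -1.94 ± 0.38, adjusted p = 0.00332). Every Hap-I library lay below every C57 library. Scnn1b, its beta subunit, stood at 8.12, 7.80, 6.86 and 3.43 against 21, 18.7, 21 and 23.2 (-1.59 ± 0.32, adjusted p = 0.00355), again without overlap.

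Egf, the growth factor made by the thick limb and distal convoluted tubule, was at 37.6, 48.3, 26.4 and 3.55 against 53.9, 334, 269 and 254 (-3.10 ± 0.87, adjusted p = 0.0158). C57 library 1 lay close to the Hap-I libraries for Egf, and without Hap-I library 4 the call was lost (adjusted p = 0.0552). The exception in direction was Cldn10, a claudin that forms cation and anion pores between tubule cells, at 308, 438, 373 and 448 in Hap-I and 158, 132, 152 and 133 in C57 (1.43 ± 0.28, adjusted p = 0.00359). Leaving out Hap-I library 4 or C57 library 4 reduced the lower members from 18 to 11. With length and GC trends removed 15 were lower, and with the Y-linked covariate 1 was.

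In the collecting duct lists, 4 of 8 principal cell genes and 7 of 15 intercalated cell genes were lower and none was higher. These are 50% and 46.7%, against 14.5% lower and 17.2% higher over all genes. Principal cells reabsorb sodium and water, and Tmem45b, Gata3, the water channel Aqp4 and Fxyd4 were their called members. Fxyd4 was weakly expressed, at 0.331 to 0.902 in Hap-I and 1.08 to 1.9 in C57. It missed the threshold in 7 of 8 fits without a library, and Gata3 in 3. Aqp4 stood at 1.49, 3.86, 2.26 and 0 in Hap-I and 7.23, 5.01, 10.7 and 11.1 in C57 (-1.87 ± 0.47, adjusted p = 0.00936). Intercalated cells secrete acid or bicarbonate. Their ammonia channel Rhcg was at 31.7, 21.2, 18.7 and 25.8 against 72.0, 53.2, 63.3 and 71.6 (-1.40 ± 0.24, adjusted p = 0.00191). The chloride and bicarbonate exchanger pendrin, Slc26a4, was at 14.6, 6.57, 9.55 and 14.0 against 22.5, 27.9, 28.4 and 29.1 (-1.25 ± 0.27, adjusted p = 0.00544). Foxi1, the transcription factor that specifies intercalated cells, and the receptor kinase Insrr had changes of -1.21 and -1.11. The groups overlapped for Foxi1, which was at 10.2 in Hap-I library 1 and 9.47 in C57 library 1. The intercalated count was 9 with length and GC trends removed. The principal cell count was 2 without Hap-I library 4, C57 library 3 or C57 library 4, and with the Y-linked covariate the counts were 0 and 1.

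Proximal tubule genes were less uniform. Of 26 transport genes tested, 6 were lower (23.1%) and 1 was higher (3.85%), against 14.5% and 17.2% of all genes. Their median change was -0.29. The higher one, Slc47a1, an exporter of organic cations outside the naming rule, had a change of 0.68 and lay just inside the threshold. The largest change among them was in the endocytic receptors that retrieve filtered protein. Cubn, which encodes cubilin, was at 13.0, 8.42, 8.50 and 7.22 in Hap-I and at 36.5, 64.4, 55.1 and 46.3 in C57 (-2.33 ± 0.37, adjusted p = 0.00135). Its partner megalin, Lrp2, was at 44.6, 26.0, 27.6 and 29.7 against 129, 190, 171 and 150 (-2.31 ± 0.38, adjusted p = 0.0015). Both genes remained past the threshold in all 8 fits that left out a library, with the Y-linked covariate (adjusted p = 0.0257 and 0.0285) and with length and GC trends removed (0.0018 and 0.00299).

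Aqp1, the water channel of proximal tubule and thin limb, differed less, at 257, 264, 243 and 155 against 495, 389, 358 and 442 (-0.89 ± 0.25, adjusted p = 0.0168). Without Hap-I library 4 its adjusted p was 0.0589. Slc22a7, an organic anion carrier gene, stood at 54.3, 15.9, 17.4 and 36.0 against 242, 150, 132 and 137 (-2.51 ± 0.57, adjusted p = 0.00625), and Slc22a8, another such carrier gene, at 106, 56.0, 66.2 and 74.7 against 180, 179, 202 and 187 (-1.33 ± 0.42, adjusted p = 0.0267). Slc22a8 missed the threshold in 6 of 8 fits without a library, all but those without Hap-I library 1 or C57 library 1. With the Y-linked covariate neither carrier passed (adjusted p = 0.0667 for Slc22a7 and 0.355 for Slc22a8). The proximal count of lower genes was between 2 and 5 when single libraries were left out, and each library other than Hap-I library 1 and C57 library 1 reduced it to 2 or 3. The same count was 5 with length and GC trends removed and 2 with the Y-linked covariate. None of 11 podocyte genes passed in limma, 2 had an unadjusted p under 0.05, and their median change was -0.13. That list's summed level was 161 to 226 in Hap-I and 160 to 195 in C57.

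Klotho, the kidney-made co-receptor for the phosphate hormone FGF23, and genes of calcium handling were lower in 6 of 11 cases. That is 54.5%, against 14.5% of all genes. None was higher, and the median change was -0.97. Kl stood at 47.4, 48.2, 49.0 and 52.6 in Hap-I and 65.7, 117, 112 and 111 in C57 (-0.99 ± 0.25, adjusted p = 0.0105). The FGF23 receptor partner Fgfr1 was at 10, 7.46, 8.22 and 6.69 against 13.2, 18.2, 17.8 and 18.0 (-0.97 ± 0.21, adjusted p = 0.00559). The Hap-I libraries were close to one another for Kl, and C57 library 1 was the nearest of the controls for both genes. Trpv5, the apical calcium channel of the distal nephron, was at 2.56, 1.23, 1.62 and 0.601 against 2.97, 6.54, 6.66 and 6.67 (-1.43 ± 0.35, adjusted p = 0.00862). Casr, the calcium-sensing receptor, had a change of -1.70 (adjusted p = 0.0206), but its groups overlapped, with 2.83 in Hap-I library 1 and 2.26 in C57 library 1. The list count was 3 without Hap-I library 4, C57 library 2, C57 library 3 or C57 library 4, 5 with length and GC trends removed and 0 with the Y-linked covariate.

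Of the renin-angiotensin list, 4 of 14 members tested were lower in Hap-I (28.6%, against 14.5% of all genes) and none was higher. The median change was -0.35. Ace (GRCm38 chromosome 11, 105967945 to 105989964), the enzyme that makes angiotensin II, was at 25.3, 20, 20.3 and 18.2 in Hap-I and 67.9, 66.2, 56.6 and 64.7 in C57 (-1.57 ± 0.40, adjusted p = 0.0101). Agt, the angiotensinogen precursor, was at 8.93, 9.29, 7.97 and 13.3 against 36.1, 18.0, 17 and 19.4 (-1.08 ± 0.32, adjusted p = 0.0193). The groups did not overlap for either gene. The aminopeptidase Anpep, which cleaves angiotensin III, had a change of -1.48 (adjusted p = 0.0231), and the oligopeptidase Thop1 one of -0.72 (0.0351). Thop1 missed the threshold in 6 of 8 fits without a library, Anpep in 4 and Agt in 2.

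Agtr1a, the mouse gene for the type 1A angiotensin receptor itself (chromosome 13, 30336441 to 30382867), stood at 16.4, 13.4, 14.9 and 16.4 in Hap-I and 16.8, 17.4, 17.3 and 11.9 in C57 (-0.04 ± 0.24, adjusted p = 0.912). The groups overlapped throughout. Ren1, which encodes renin, was at 29.6, 27.8, 19.1 and 35.3 against 58.4, 36.1, 42.7 and 56.3 (-0.78 ± 0.32). It missed the threshold (adjusted p = 0.0717), although all 4 Hap-I values were below all 4 C57 values, and passed with length and GC trends removed (0.0482).

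The 7 further members named here lay between -1.11 for the neprilysin gene Mme (adjusted p = 0.0691) and 0.36 for the carboxypeptidase gene Prcp (0.34), and none passed. These were Enpep, Mme, Atp6ap2, Agtrap, Lnpep, Prcp and Nln. Agtr1b, Agtr2 and Mas1 fell below the filter, with no level above 0.647 in the 8 libraries. The count of 4 was 2 without Hap-I library 3, Hap-I library 4, C57 library 1, C57 library 2 or C57 library 4. It was 5 with length and GC trends removed and 0 with the Y-linked covariate, where Ace had an adjusted p of 0.114.

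Subunits of the respiratory chain were higher in Hap-I. All 13 tested protein-coding transcripts of the mitochondrial genome were higher, with a median change of 1.86. So were 30 of 46 nuclear-encoded subunits, with a median of 0.83 and none lower. These are 100% and 65.2%, against 17.2% of all genes. On TPM as deposited, where every gene is measured against the whole library, 11 of the 13 were higher, and the nuclear subunits split into 3 higher and 11 lower. Ndufc2, a subunit of complex I, was at 339, 358, 372 and 561 in Hap-I and at 126, 64.1, 71.0 and 78.6 in C57 (2.27 ± 0.27, adjusted p = 0.00031). Sdhd, the membrane anchor of complex II, was at 582, 700, 795 and 850 against 304, 243, 236 and 232 (1.52 ± 0.26, adjusted p = 0.00179). For both genes the lowest Hap-I library exceeded the highest C57 library. Cox7c of complex IV stood at 1330, 1380, 1720 and 2570 against 786, 415, 423 and 415 (1.78 ± 0.38, adjusted p = 0.00492), with C57 library 1 apart from the other controls.

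Among mitochondrially encoded genes, mt-Nd5 was at 7060, 8130, 8280 and 7570 against 1430, 2410, 2250 and 2040 (1.95 ± 0.37, adjusted p = 0.00273). The ATP synthase genes mt-Atp8 and mt-Atp6 had changes of 2.63 and 2.37, and mt-Co3 one of 3.15. The value of mt-Co3 and mt-Atp6 is uncertain because near-identical copies exist in the nuclear genome. Without genes that have such copies, 6 mitochondrial genes were called. Transcripts of these lists are short, with a median longest transcript of 784 bases for the mitochondrial and 1232 bases for the nuclear list. With length and GC trends removed, 8 mitochondrial and 17 nuclear members were higher, and with the Y-linked covariate 4 and 2. Leaving out Hap-I library 3, Hap-I library 4, C57 library 2, C57 library 3 or C57 library 4 reduced the nuclear count to between 13 and 19.

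Cytosolic ribosomal protein genes gave the highest count. Of 53 tested, 44 were higher (83.0%, against 17.2% of all genes) and none was lower, with a median change of 1.35. As deposited TPM, 14 were higher and 3 lower. Rps13, a protein of the small subunit, was at 625, 538, 542 and 848 in Hap-I and at 117, 21.6, 25.1 and 74.5 in C57 (3.71 ± 0.48, adjusted p = 0.000594). Rpl15, of the large subunit, was at 365, 324, 342 and 555 against 153, 47.6, 53.0 and 97.5 (2.29 ± 0.37, adjusted p = 0.0014). Among the controls, libraries 2 and 3 were lowest and library 1 highest for both genes. Rps26, Rps7 and Rpl10a had changes of 3.03, 1.93 and 2.10. Removing length and GC trends left 41 higher members and the Y-linked covariate 7. Coa6, an assembly factor of complex IV outside these lists, was at 50.9, 38.2, 30.6 and 65.5 against 11.8, 2.30, 2.86 and 8.87 (2.84 ± 0.44, adjusted p = 0.00129).

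Antioxidant and glutathione genes were higher in 11 of 33 cases (33.3%, against 17.2% of all genes). Gstm1, a glutathione transferase gene, was the only lower 1 (3.03%, against 14.5%). Without Hap-I library 3, Hap-I library 4, C57 library 2, C57 library 3 or C57 library 4, 6 or 7 were higher, and the lower count was 4 without Hap-I library 4 and 2 without C57 library 1. Removing length and GC trends gave 8 higher and 2 lower, and the Y-linked covariate 1 and 0. On TPM as deposited, 2 were higher and 19 lower. Gpx1, the main cytosolic glutathione peroxidase, was at 4210, 4840, 7090 and 9070 in Hap-I and 2310, 1020, 1010 and 1190 in C57 (2.21 ± 0.40, adjusted p = 0.00243). Gpx4, which reduces lipid peroxides, was at 1790, 2400, 2780 and 4940 against 1390, 625, 651 and 660 (1.82 ± 0.47, adjusted p = 0.0113). Selenop, the selenium carrier that supplies such selenoenzymes, was at 1290, 3400, 4020 and 4650 against 330, 315, 271 and 266 (3.35 ± 0.58, adjusted p = 0.00191). Hap-I library 1, without Y-linked transcripts, was the lowest of its group for Selenop and still above every control. Peroxiredoxins Prdx1 and Prdx3 had changes of 1.19 and 0.78. Of the NADPH oxidase and nitric oxide synthase genes, 1 of 11 was higher (9.09%, against 17.2% of all genes) and none lower. This was Cyba, the membrane subunit p22phox, at 598, 666, 899 and 1470 against 574, 227, 244 and 289 (1.46 ± 0.35, adjusted p = 0.00779). That count was 2 with length and GC trends removed and 0 with the covariate.

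**Figure D2:**
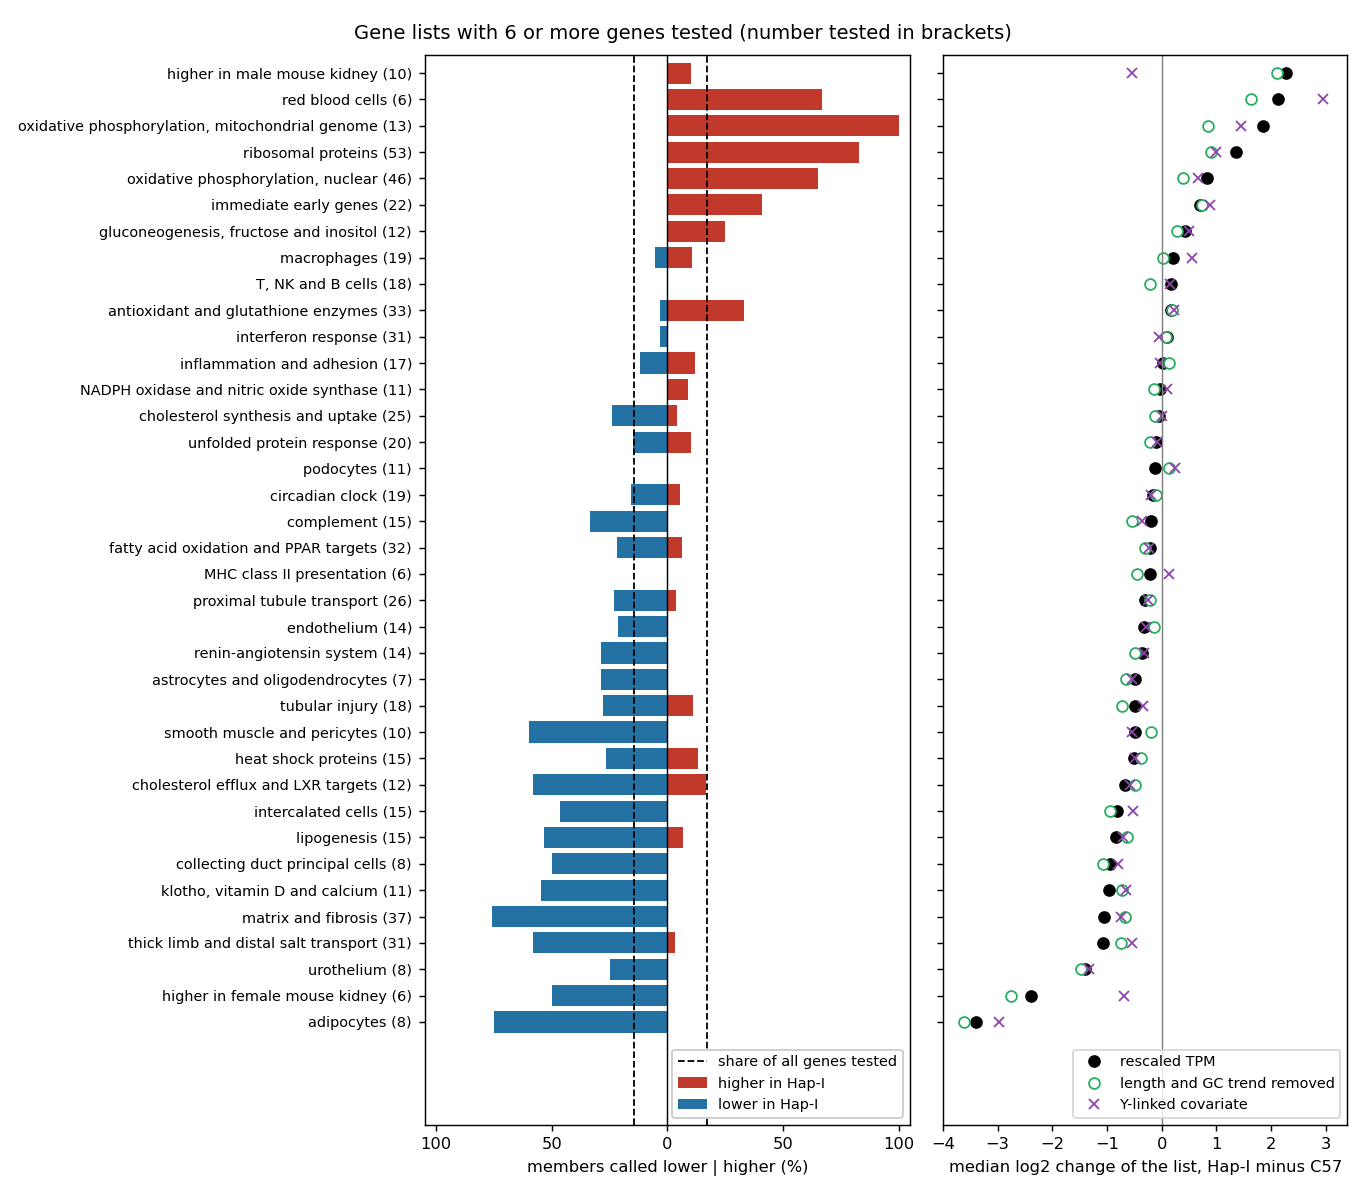
Left, share of members of each gene list called higher (right) or lower (left) in Hap-I on western diet than in C57, with dashed lines at the share of all genes tested (17.2% and 14.5%). Right, median log2 change of each list in the reported fit, with length and GC trends removed, and with the Y-linked covariate. Ribosomal, respiratory chain and immediate early lists lie on the higher side, and salt transport, matrix and adipocyte lists on the lower. On TPM as deposited the nuclear respiratory chain, antioxidant and gluconeogenesis lists had more lower than higher calls, and the immediate early list had 3 of each.

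Genes of fatty acid synthesis were lower in 8 of 15 cases (53.3%) and higher in 1 (6.67%), against 14.5% and 17.2% of all genes. Their median change was -0.83. Acaca, acetyl-CoA carboxylase, the committed step, was at 1.63, 1.74, 2.45 and 1.41 in Hap-I and 13.1, 15, 10 and 4.77 in C57 (-1.98 ± 0.25, adjusted p = 0.000577). Fasn, fatty acid synthase, was at 5.90, 1.37, 4.89 and 3.73 against 132, 35.0, 28.1 and 10.9 (-2.96 ± 0.53, adjusted p = 0.00223). Scd1, the desaturase that makes oleate, was at 108, 16.4, 38.0 and 11.6 against 474, 404, 311 and 230 (-3.46 ± 0.98, adjusted p = 0.0165). No pair of groups overlapped, and the call of Scd1 was lost without Hap-I library 4 (adjusted p = 0.0553).

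Acly, which supplies cytosolic acetyl-CoA, was at 28.4, 26.3, 28.4 and 30.6 against 57.2, 53.2, 47.8 and 45.7 (-0.82 ± 0.16, adjusted p = 0.00319). Mlxipl, which encodes the carbohydrate-sensing factor ChREBP, went the other way, at 26.9, 22.8, 20.7 and 28.4 against 10.2, 11.9, 13.0 and 12.9 (0.98 ± 0.19, adjusted p = 0.003). Srebf1, the lipogenic SREBP gene, was lower with a change of -0.98 (adjusted p = 0.0129). The list again had 8 lower members once length and GC trends were removed, and 3 with the Y-linked covariate.

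Markers of fat cells moved with these genes. Of 8 adipocyte genes tested, 6 were lower (75%, against 14.5% of all genes), with a median change of -3.39. The summed list was at 165 to 386 in Hap-I and 234 to 1420 in C57. Cfd, the adipocyte protease adipsin, was listed at 0 in Hap-I libraries 1, 2 and 4 and at 16.8 in library 3, and was at 810, 357, 121 and 12.1 in C57. Adipoq, which encodes adiponectin, was at 0.186, 0.113, 7.38 and 0 against 89.5, 73.8, 22.8 and 1.75 (-3.82 ± 0.94, adjusted p = 0.00884). Hap-I library 3 held the most of its group and C57 library 4 the least of the controls, so the groups overlapped for these genes. Retn, Cidec and the carbonic anhydrase gene Car3 were likewise lowest in library 4 among the controls and highest in library 3 within Hap-I. The adipocyte count was 7 with length and GC trends removed and 2 with the Y-linked covariate.

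Fat cells also express the lipogenic genes, and the part of these cells in the lipogenic values was not tested. In C57 library 4, Adipoq was at 1.75 and below Hap-I library 3. Acaca, Fasn and Scd1 were also lowest among the controls in that library, and above every Hap-I library, as the plot of adipocyte and lipogenic genes shows.

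**Figure D3:**
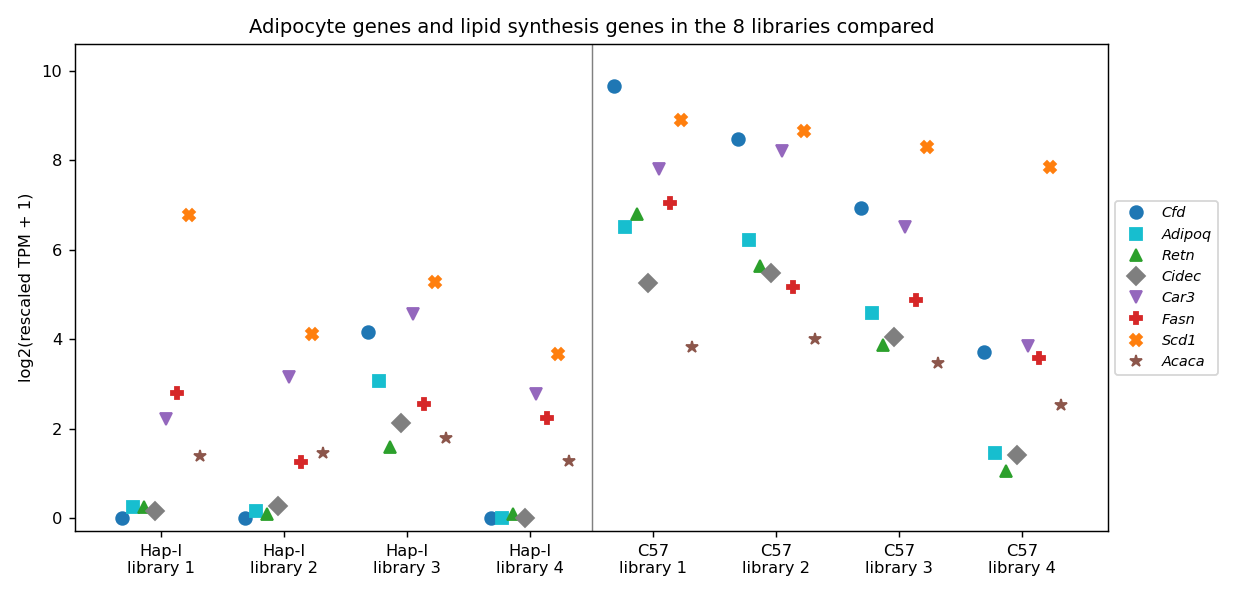
Levels, as log2(rescaled TPM + 1), of 5 adipocyte genes (Cfd, Adipoq, Retn, Cidec, Car3) and 3 lipid synthesis genes (Fasn, Scd1, Acaca) in the 4 Hap-I and 4 C57 libraries. Cfd falls from 810 TPM in C57 library 1 to 12.1 TPM in C57 library 4. Scd1 falls from 474 to 230 TPM over the same libraries and is at 108 TPM or less in all Hap-I libraries.

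Cholesterol genes did not move as 1 block. Of 25 tested, 6 were lower (24%) and 1 higher (4%), against 14.5% and 17.2% of all genes. Their median of -0.05 was near that of all genes. Fdft1, squalene synthase, was at 8.67, 5.49, 5.98 and 4.21 in Hap-I and 17.7, 11.6, 10.1 and 10.3 in C57 (-0.92 ± 0.23, adjusted p = 0.009). It passed in all 8 fits that left out a library. The regulator Srebf2 also had a change of -0.92 (adjusted p = 0.0231). Idi1, the isopentenyl isomerase of the same pathway, was higher, at 22.0, 52.0, 42.4 and 56.9 against 12.8, 9.73, 10.3 and 9.59 (1.86 ± 0.56, adjusted p = 0.0221). Idi1 missed the threshold without Hap-I library 2, Hap-I library 4, C57 library 2 or C57 library 4 (adjusted p up to 0.0635), and Srebf2 without Hap-I library 2, Hap-I library 3, Hap-I library 4 or C57 library 4 (up to 0.072). The list count of lower genes was 2 or 3 without Hap-I library 2, Hap-I library 3, Hap-I library 4, C57 library 1 or C57 library 4. Removing length and GC trends left 3 lower and none higher, and the Y-linked covariate 2 and 0.

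Of 12 genes of cholesterol efflux and LXR targets, 7 were lower (58.3%) and 2 higher (16.7%), against 14.5% and 17.2% of all genes. The higher share was near that of all genes. Scarb1, the HDL receptor, was at 5.62, 4.68, 3.95 and 2.41 against 9.33, 8.41, 7.06 and 7.60 (-0.85 ± 0.19, adjusted p = 0.00571). Npc2, which carries cholesterol out of lysosomes, and Nr1h3, the LXR alpha receptor gene, were higher by 0.78 and 0.87 and were below 0 on TPM as deposited. Without Hap-I library 4, C57 library 2 or C57 library 4 the lower count was 3 or 4. It was 5 with length and GC trends removed and 0 with the Y-linked covariate. Fatty acid oxidation and PPAR target genes split into 7 lower (21.9%) and 2 higher (6.25%) of 32, against 14.5% and 17.2% of all genes. The lower count was between 2 and 4 without Hap-I library 2, Hap-I library 3, C57 library 2, C57 library 3 or C57 library 4. The higher count was 5 without Hap-I library 1, 3 without C57 library 1, 0 without Hap-I library 4 and 1 without each of the others. Removing length and GC trends left 6 lower and 2 higher, and the Y-linked covariate 1 and 0. Hadha, of the mitochondrial trifunctional protein, was at 49.9, 36.4, 42.0 and 45.7 against 121, 119, 130 and 121 (-1.49 ± 0.27, adjusted p = 0.00238). Hadh, the short-chain dehydrogenase of the same pathway, was higher by 0.63 and had a change of -0.37 on TPM as deposited. The other higher member was Acads, with a change of 0.76. Of 12 genes for gluconeogenesis, fructose and polyols, 3 were higher (25%, against 17.2% of all genes) and none lower. These were Gk, Sord and Khk, by 0.93, 0.94 and 0.80. On TPM as deposited none of the list was higher and 4 were lower. The higher count was 3 with length and GC trends removed and 0 with the Y-linked covariate.

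Immediate early genes, which cells transcribe within minutes of a stimulus and also during tissue handling, were higher in 9 of 22 cases. That is 40.9%, against 17.2% of all genes. None was lower, and the median change of the list was 0.71. Fos was at 7.14, 7.06, 6.94 and 20.7 in Hap-I and 0.695, 0.531, 0.486 and 0.481 in C57 (2.74 ± 0.38, adjusted p = 0.000895). Egr1 was at 11.9, 12.4, 13.9 and 64.6 against 3.87, 1.80, 1.45 and 1.72 (2.72 ± 0.57, adjusted p = 0.00461). Hap-I library 4 was the highest of its group by far for both, and the other 3 Hap-I libraries were close together and above all controls. Ccn1, a secreted matricellular protein, was at 35.2, 26.2, 29.8 and 36.0 against 8.95, 8.12, 8.24 and 4.78 (1.97 ± 0.36, adjusted p = 0.00245).

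Dusp1, the phosphatase that switches off MAP kinases, was at 13.8, 7.37, 14.7 and 8.09 in Hap-I and 1.44, 1.51, 2.30 and 4.69 in C57 (1.82 ± 0.32, adjusted p = 0.002). Its promoter is printed because it alone among the called members with a promoter entry holds the palindromic cAMP response element TGACGTCA, searched on both strands in the 250 bases before the RefSeq start. The element was found in 1 of the 7 called members with a promoter entry, against 2.34% of promoters of genes tested. The stretch lies on the minus strand of GRCm38.p6 at chr17:26508568-26508655, with the motif starting 143 bases before the start site and shown in capitals.
Dusp1 promoter: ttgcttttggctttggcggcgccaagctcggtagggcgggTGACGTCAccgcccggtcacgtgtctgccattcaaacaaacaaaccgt
A match describes these letters and is no evidence that a factor was bound. The E-box CACGTG was in none of the 4 called clock members with an entry (8.12% of promoters of genes tested). The sterol response core TCACNCCAC was in none of the 3 called cholesterol members with an entry (0.973%).

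Without Hap-I library 4, 5 immediate early genes were higher. With length and GC trends removed 9 were, with the Y-linked covariate 5, and on TPM as deposited 3 were higher and 3 lower. Clock genes, whose levels swing over the day, were lower in 3 of 19 cases (15.8%, near the 14.5% of all genes) and higher in 1 (5.26%, against 17.2%). Both counts were 2 with length and GC trends removed and 0 with the Y-linked covariate. The nuclear receptor gene Nr1d1 was at 12.9, 12.5, 13.6 and 9.59 in Hap-I and 25.0, 26.2, 29.9 and 32.9 in C57 (-1.17 ± 0.30, adjusted p = 0.0105). Dbp, a clock output factor, was at 2.87, 6.42, 5.65 and 3.87 against 13.6, 6.92, 8.55 and 15.7 (-1.08 ± 0.31, adjusted p = 0.0177), and the clock repressor gene Cry2 had a change of -0.91. The hour of tissue collection is not given in the labels. Nr1d2 was higher by 0.65 and was at -0.31 on TPM as deposited. It missed the threshold in 4 of 8 fits without a library, and Dbp in 2, those without Hap-I library 4 or C57 library 4. The higher count was 2 without Hap-I library 1 and 0 without Hap-I library 2, Hap-I library 3, C57 library 1 or C57 library 3.

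Stress response genes of the endoplasmic reticulum and cytosol were called in both directions. Of 20 unfolded protein response genes, 2 were higher (Manf and Dnajb9) and 3 lower (Asns, Hyou1 and Hsp90b1). These are 10% and 15%, against 17.2% and 14.5% of all genes, so the lower share was near that of all genes. Asns, asparagine synthetase, a target of the factor ATF4, was at 1.46, 1.66, 2.30 and 1.17 in Hap-I and 10.4, 7.78, 5.55 and 4.36 in C57 (-1.56 ± 0.24, adjusted p = 0.00132). Manf, a secreted stress protein of the endoplasmic reticulum, was at 102, 94.6, 101 and 180 against 72.7, 49.8, 50.6 and 53.8 (1.03 ± 0.26, adjusted p = 0.0102). Of 15 heat shock genes, 4 were lower (26.7%) and 2 higher (13.3%), the latter being Hspe1 and Dnajb1. Hsph1, a disaggregase of the HSP110 family, had a change of -1.34 (adjusted p = 0.0186), and the mitochondrial chaperonin Hspe1 one of 1.77 (0.00571). The co-chaperone Bag3 was at 5.36, 4.62, 4.70 and 7.64 against 11, 9.72, 11.5 and 13.0 (-0.92 ± 0.17, adjusted p = 0.00279). The lower heat shock count was 2 without C57 library 4, and the higher count 1 without Hap-I library 4, C57 library 1 or C57 library 2. With the Y-linked covariate 1 member of each list was lower and none higher, and with length and GC trends removed the counts were 1 higher and 3 lower for the unfolded protein response and 2 and 5 for heat shock.

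Matrix genes were lower in 28 of 37 cases (75.7%, against 14.5% of all genes) and higher in none, with a median change of -1.05. Fn1, fibronectin, was at 4.52, 2.31, 1.81 and 1.55 in Hap-I and at 13.5, 20.6, 22.3 and 9.5 in C57 (-2.30 ± 0.26, adjusted p = 0.000241). Lamc1, a laminin chain of basement membranes, was at 4.36, 2.85, 2.21 and 3.47 against 12, 8.68, 10.2 and 9.85 (-1.42 ± 0.21, adjusted p = 0.00126). Col6a2, a collagen VI chain, was at 1.80, 0.544, 0.641 and 0.481 against 4.84, 4.07, 4.38 and 2.48 (-1.43 ± 0.21, adjusted p = 0.00126). No library of either group crossed into the other for these 3 genes, and Hap-I library 1 was the highest of its group. Matrix transcripts are long, with a median longest transcript of 5172 bases. Removing length and GC trends left 21 lower members and the Y-linked covariate 9, and leaving out single libraries gave 25 to 30.

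Smooth muscle and pericyte genes were lower in 6 of 10 cases (60%, against 14.5% of all genes). Pdgfrb, the pericyte receptor, had a change of -1.04 (adjusted p = 0.00593), and the myosin gene Myh11, at 0.868, 0.858, 1.13 and 1.29 against 3.57, 4.48, 3.90 and 2.62, one of -1.18 (0.00828). With length and GC trends removed the count was 2 and neither gene passed, and the Y-linked covariate left 1. Endothelial genes were lower in 3 of 14 cases (21.4%, against 14.5% of all genes). These were Cdh5, Ehd3 and Pecam1, with changes of -0.73, -0.72 and -0.52. That count was 2 with length and GC trends removed and 0 with the covariate, and Pecam1 missed the threshold in 6 of 8 fits without a library. The tubular injury list had 5 lower (27.8%) and 2 higher (11.1%) of 18, against 14.5% and 17.2% of all genes. Its lower count was 3 without Hap-I library 4 or C57 library 4, 7 with length and GC trends removed and 1 with the covariate. Clu, the chaperone clusterin, was at 77.5, 40.9, 52.5 and 44.4 against 324, 209, 218 and 233 (-2.19 ± 0.43, adjusted p = 0.00328). Vim, vimentin, was at 26.0, 19.7, 17.8 and 27.5 against 63.0, 53.4, 42.9 and 33.7 (-1.04 ± 0.30, adjusted p = 0.0187). The 2 higher members, outside the naming rule, were Gdf15 and Tnfrsf12a, with changes of 0.88 and 1.10. Neither passed without Hap-I library 3, Hap-I library 4, C57 library 2, C57 library 3 or C57 library 4.

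Immune cell lists showed few calls. None of 18 genes of T, NK and B cells and none of 6 of MHC class II presentation passed in limma, where 1 and 0 had an unadjusted p under 0.05. C57 library 1 was the highest of the 8 libraries for both lists. For T, NK and B cells its mean log2 level was 3.07, against 1.55 to 1.82 in the other controls. Without C57 library 1, 2 genes of T, NK and B cells were higher in Hap-I and none of MHC class II presentation passed. Of 31 interferon genes 1 was lower (Gbp3, -1.83, adjusted p = 0.0159), and macrophage genes split into 2 higher (Ccr2 and Ms4a7) and 1 lower of 19. In both lists the higher and lower shares were below the 17.2% and 14.5% of all genes, so the counts set neither list apart. Csf1r, the macrophage growth factor receptor, was at 11.5, 8.58, 5.47 and 7.30 in Hap-I and 19.0, 19.4, 17.1 and 16.4 in C57 (-1.08 ± 0.27, adjusted p = 0.00969). Ccr2, the receptor of recruited monocytes, was at 3.94, 2.42, 2.25 and 1.40 against 1.34, 1.03, 1.02 and 0.496 (0.80 ± 0.27, adjusted p = 0.0363), and its call was lost in 6 of 8 fits without a library, as was that of Ms4a7 in 7. No macrophage gene was higher with length and GC trends removed or with the Y-linked covariate. The inflammation and adhesion list had 2 higher and 2 lower of 17 (11.8% each, below the 17.2% and 14.5% of all genes). Its lower members were Nfkb1, a subunit gene of NF-kappa B, and Tnfrsf1a, the type 1 TNF receptor gene, with changes of -0.47 and -0.53 (adjusted p = 0.0327 and 0.0359). Of the higher members, the Ccr2 ligand gene Ccl2 was at 6.44, 2.48, 1.47 and 4.97 against 1.08, 0.951, 0.979 and 0.541 (1.24 ± 0.38, adjusted p = 0.0225). The cytokine gene Il1b had a change of 1.14 (adjusted p = 0.0285). Neither Ccl2 nor Il1b passed with length and GC trends removed (0.264 and 0.198). In fits without a library Ccl2 missed the threshold in 3 of 8, Il1b in 5, Nfkb1 in 6 and Tnfrsf1a in 7, and 1 list member was higher and none lower with the Y-linked covariate.

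The neutrophil calprotectin genes were higher. S100a9 was at 13.5, 7.33, 11 and 68.9 against 2.58, 1.12, 0.742 and 0.710 (3.03 ± 0.70, adjusted p = 0.00673), and its partner S100a8 at 5.48, 3.98, 7.31 and 47.1 against 1.22, 0.221, 0.701 and 0.0858 (2.83 ± 0.75, adjusted p = 0.012). Hap-I library 4 was far above the rest for both. With the Y-linked covariate neither passed (adjusted p = 0.0812 for S100a9 and 0.108 for S100a8), and with length and GC trends removed both did (0.0154 and 0.0305). Genes of red blood cells, which share the blood with neutrophils, were higher in 4 of 6 cases (66.7%, against 17.2% of all genes). Their summed level was 4210 to 18200 in Hap-I and 525 to 1880 in C57. Hbb-bs was at 2930, 3800, 8490 and 13100 against 974, 282, 583 and 361 (3.59 ± 0.74, adjusted p = 0.00424). All 4 called members are globin genes with near-identical copies, so their separate values are uncertain. The count was 2 without Hap-I library 3, Hap-I library 4, C57 library 2, C57 library 3 or C57 library 4, where Hba-a1 and Hba-a2 missed the threshold. Both also missed it with length and GC trends removed (adjusted p = 0.0752 and 0.0837). Complement genes were lower in 5 of 15 cases (33.3%, against 14.5% of all genes). C3, the central component, was at 3.39, 1.41, 2.10 and 1.26 against 28.1, 38.0, 20.6 and 6.61 (-2.82 ± 0.49, adjusted p = 0.00195), and C57 library 4, the lowest control in adipocyte genes, was also the lowest for C3. C2, Serping1 and C1ra had changes of -1.42, -1.05 and -0.91, and the remaining called member was Cfd. The complement count was 5 with length and GC trends removed and 2 with the Y-linked covariate.

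Several of the largest changes separated Hap-I library 1 from the Hap-I libraries with Y-linked transcripts. Ugt2b37, a glucuronosyltransferase, was at 0.870 in Hap-I library 1 and 220, 351 and 398 in libraries 2, 3 and 4, and at 0.360, 0.428, 0.589 and 0.312 in C57 (5.94 ± 2.08, adjusted p = 0.0402). Akr1c18, which inactivates progesterone, was at 63.4, 6.68, 4.76 and 4.31 against 320, 482, 542 and 245 (-5.10 ± 0.98, adjusted p = 0.00318). Cyp4a14, a fatty acid hydroxylase, was at 97.4, 5.01, 1.84 and 2.72 against 103, 159, 168 and 143 (-4.0 ± 1.43, adjusted p = 0.0446). For Ugt2b37 and Cyp4a14, Hap-I library 1 sat beside the controls, and for Akr1c18 it lay between. Apoh and Hdc, the histamine-forming decarboxylase, showed the same split, and Ugt2b37, Apoh, Cyp4a14 and Hdc each lost the call in 7 of 8 fits without a library.

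With the Y-linked covariate the adjusted p was 0.621 for Ugt2b37 and 0.719 for Cyp4a14, but 0.00651 for Akr1c18 and 0.0327 for Abcc3, an organic anion exporter at 10.9, 1.37, 1.90 and 0.936 against 46.8, 34.7, 35.8 and 36.9 (-3.47 ± 0.79, adjusted p = 0.00644). Lipo3, a lipase-like gene, was at 7.10, 43.9, 50.4 and 59.2 against 2.97, 3.75, 3.71 and 2.82 (2.92 ± 0.79, adjusted p = 0.0135). Of the genes known to be higher in male mouse kidney, 1 of 10 was higher (10%, against 17.2% of all genes). Yet their median change was 2.27, and without Hap-I library 1, 6 passed. The called member was Odc1, ornithine decarboxylase, at 206, 457, 609 and 1180 against 138, 149, 144 and 134 (1.85 ± 0.52, adjusted p = 0.0158). Of 6 genes higher in female kidney, 3 were lower in Hap-I (50%, against 14.5% of all genes), namely Abcc3, Cyp4a14 and the carrier gene Slc22a19. Slc22a19 was at 71.9, 23.9, 20.7 and 17.4 against 131, 167, 140 and 120 (-2.26 ± 0.54, adjusted p = 0.00803). With the covariate the medians of these lists were -0.55 and -0.68.

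**Figure D4:**
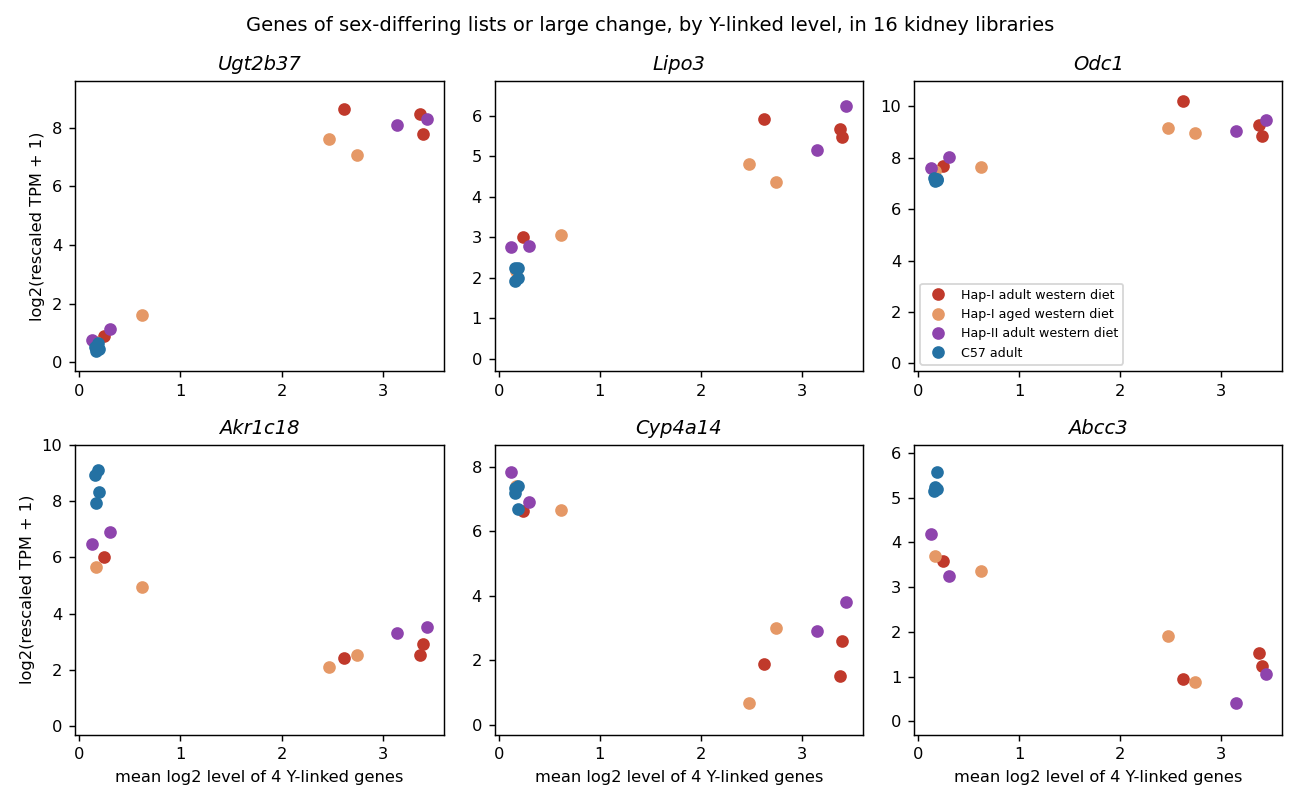
Level, as log2(rescaled TPM + 1), of 6 genes against the mean log2 level of 4 Y-linked genes in each of the 16 kidney libraries, coloured by group. The 9 libraries without Y-linked transcripts, including Hap-I library 1 and all 4 C57 libraries, lie on the left, and for Ugt2b37 and Cyp4a14 the western diet libraries there stand with C57.

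Other large changes did not follow that split. Tusc3 (ENSMUSG00000039530, chromosome 8, 39005845 to 39165114), a subunit of the oligosaccharyltransferase that glycosylates nascent proteins, was at 0.0111 or less in all 4 Hap-I libraries and at 21.6, 17.6, 19.6 and 17 in C57 (-4.31 ± 0.35, adjusted p = 1.1e-05). It was not near 0 in the other groups on the diet, so that the change against C57 was -0.97 in Hap-II adults and -0.51 in aged Hap-I mice. The difference between Hap-I and Hap-II adults was -3.34 (adjusted p = 0.000191), and Tusc3 was the only 1 of the 147 named genes tested that passed in that comparison. Msantd4, a gene for a Myb/SANT-like domain protein, was at 11.6, 3.18, 12.2 and 16 in Hap-I and at most 0.419 in C57 (3.20 ± 0.52, adjusted p = 0.00148), with changes against C57 of 0.52 in Hap-II and 0.22 in aged Hap-I mice. For Tusc3 and Msantd4 it could not be checked from TPM whether their reads were assigned to another annotated gene. Bcat2, the mitochondrial aminotransferase of branched-chain amino acids, was at 6.49, 3.32, 2.57 and 0.601 against 25.1, 20.7, 16.3 and 22.7 (-2.57 ± 0.46, adjusted p = 0.0021). Sec14l3, a lipid-binding protein, had a change of -2.66 (adjusted p = 0.0027).

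**Figure D5:**
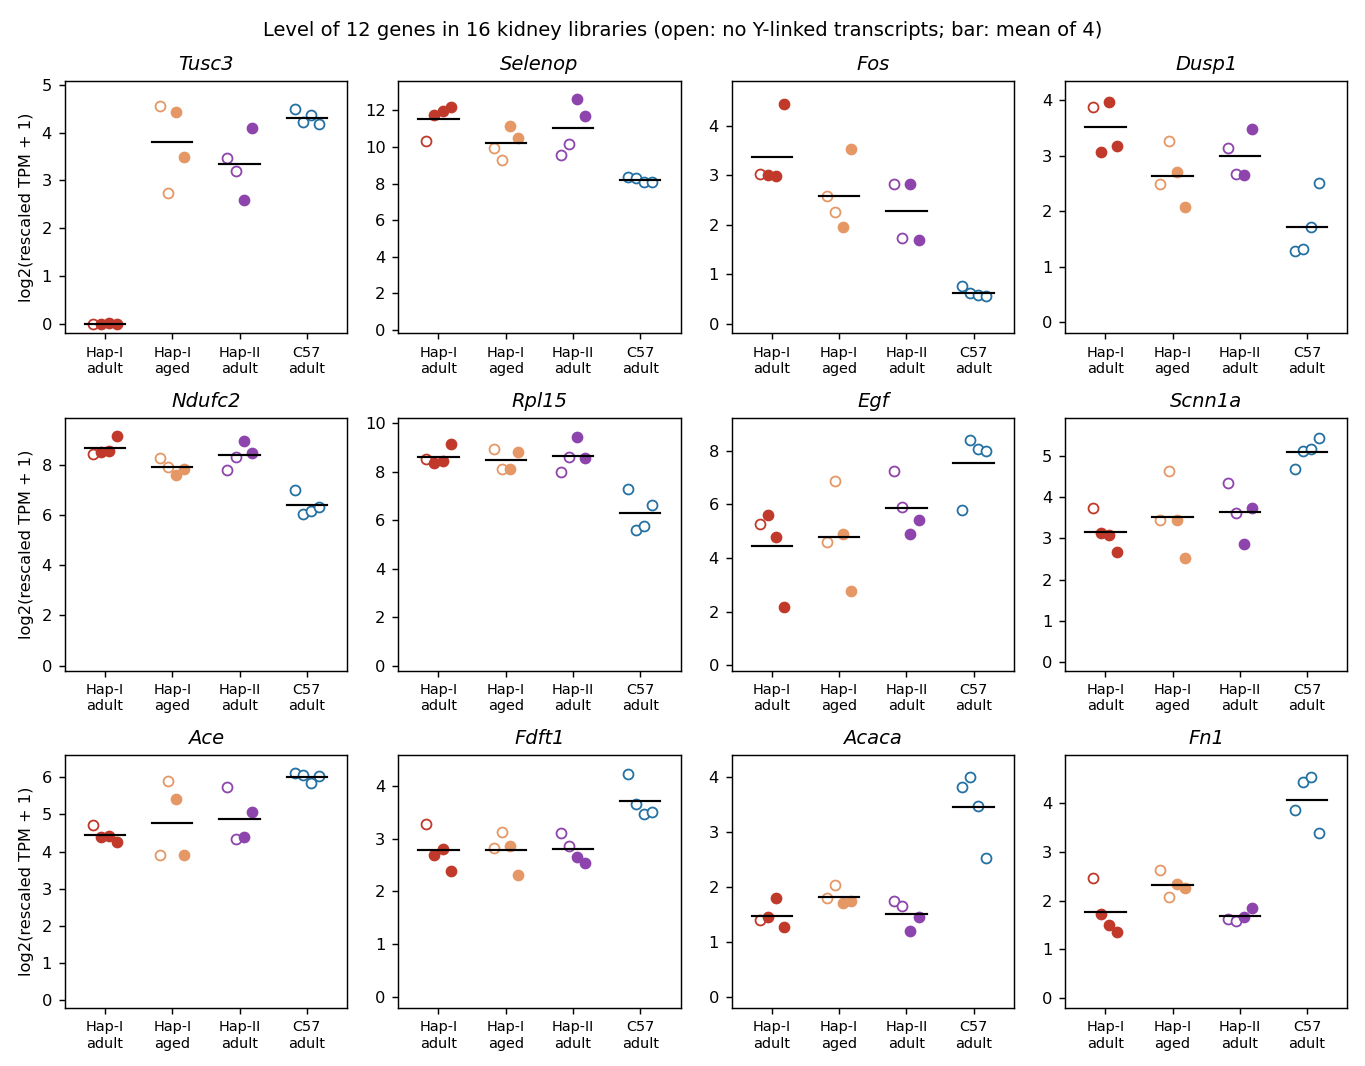
Level, as log2(rescaled TPM + 1), of 12 genes in the 4 groups of kidney libraries, with each library as a circle (open without Y-linked transcripts) and the mean of 4 as a bar. Tusc3 is near 0 only in Hap-I adults, while for Fos, Ndufc2, Acaca and Fn1 all 3 groups on western diet lie to the same side of C57.

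The remaining western diet groups share the C57 libraries as controls, and their values are given only side by side. Against C57, the log2 change of Fos was 2.74 in Hap-I adults, 1.64 in Hap-II adults and 1.95 in aged Hap-I mice, and that of Fn1 was -2.30, -2.37 and -1.73. Scnn1a was at -1.94, -1.47 and -1.59. For Ace these values were -1.57, -1.14 and -1.24, and for Ndufc2 2.27, 2.00 and 1.52. Egr1 was at 2.72, 1.2 and 1.53, and mt-Co3 at 3.15, 0.95 and 1.10. Differences between the diet groups were tested only for Hap-I against Hap-II adults.

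Lists of cell types from outside the nephron were checked for other tissue in the samples. Neuronal genes gave 1 called of 4 (Syp, -0.81) and glial genes 2 of 7 (Slc1a3 at -1.14 and Cnp at -0.91), all lower in Hap-I. These are 25% and 28.6%, against 14.5% lower over all genes, from few genes tested. The median deposited TPM of 12 neuronal genes was at most 1.01 in the 8 libraries. Genes of the urothelium, which lines the renal pelvis, were lower in 2 of 8 cases (25%, against 14.5% of all genes), Krt15 and Upk3b. Krt15 was at 0.887, 1.45, 2.89 and 0.332 against 11.9, 3.44, 3.89 and 4.74 (-1.52 ± 0.42, adjusted p = 0.0156). The summed level of the list was 6.15 to 73.9 in Hap-I and 38.2 to 176 in C57. The urothelial count was 4 without Hap-I library 3, 0 without Hap-I library 4 and 1 without Hap-I library 1, C57 library 1, C57 library 3 or C57 library 4. Upk3b lost its call in 7 of 8 such fits, and no urothelial gene passed with the Y-linked covariate. Of 2 adrenal genes tested, Star was lower, with no level above 2.14, and its call was lost in 6 of 8 fits without a library. The calls in these lists were in the same direction as those of the adipocyte list. Red blood cell genes went the other way, with 4 of 6 higher in Hap-I. How much of each kidney, its fat or its pelvis was dissected is not given in the labels.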

How the data were processed

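Polyadenylated RNA was extracted with a Qiagen kit and sequenced from stranded Illumina TruSeq libraries, per the labels' protocols. The authors deposited 1 table of TPM per gene and library. Tools named in the submitters' processing notes are kallisto and DESeq2, with the build GRCm38 and no versions. For annotation release, filters and depth the entry is: not given in the sources used here. TPM are shares of a library, so an abundant class lowers all others. Pseudo-alignment can divide reads unevenly between near-identical genes, and genes sharing 50% or more of their words of 31 bases with another gene are called uncertain.

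The 16 kidney libraries of 4 groups were fitted together. The 8 Hap-I libraries whose labels name no diet were left out. Deposited TPM were divided by median-of-ratios factors. Genes reaching 1 TPM in 4 libraries or more were tested as log2(rescaled TPM + 1) with limma 3.58.1 in R 4.3.3 (a mean per group, trended eBayes, two-sided, Benjamini-Hochberg over all genes). DESeq2 was not run, since TPM are no counts. Alternatives were deposited TPM, quantile normalization, removal of mitochondrially encoded genes, a pseudocount of 0.1, other filters, array weights, fewer libraries and a Y-linked covariate. Removal of length and GC trends (loess, span 0.3, within each library) and a fit of only libraries without Y-linked transcripts were added after seeing the data. The fit was tested on simulated data.

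Named genes were the 12 largest changes on each side without overlap and with a mean of at least 5 TPM, up to 4 called members of each of 41 lists with the smallest adjusted p, and the renin-angiotensin list. A few genes that the rule names are not reported here, although they remain in the fits and list counts. Other genes are marked as outside the rule or were chosen after their values were seen (Gdf15, Tnfrsf12a, Dnajb1, Gstm1, Acads, C1ra, Hsp90b1, Slc47a1). The comparison and the lists were chosen with earlier results of these data known. Promoters are from RefSeq on GRCm38.p6, symbols and coordinates from the GENCODE annotation of GRCm38. The design text gives animals as replicates, and p-values measure the spread between these samples only. Figures were drawn with matplotlib 3.10.9.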

Additional observations from a re-analysis of the deposited data

Results flagged for a closer look

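In 306 groups of 4 libraries checked, 33 held a library far from the other 3 (its gap to the nearest, divided by the group's range, above Dixon's critical value for 4). Chance flags about 1 in 20. Hap-I library 1, without Y-linked transcripts, was the distant one for Ugt2b37 (0.890), Lipo3 (0.854), Akr1c18 (0.852) and Hdc (0.894), and also for Col6a2 (0.838) and Mas1 (0.926). Hap-I library 4 stood apart for Fos (0.974), Egr1 (0.912), Aqp1 (0.842), Anpep (0.856) and Manf (0.881). Hap-I library 3 stood apart for the adipocyte genes Cfd (1.00), Cidec (0.876), Retn (0.886) and Adipoq (0.920), and, at levels near 0, for Tusc3 (1.00) and Agtr1b (1.00).

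C57 library 1 stood apart from the other controls for the slope of relative level against transcript length (0.916). The same library was the distant one for Egf (0.848), Fxyd4 (0.928), Slc26a4 (0.837), Fgfr1 (0.927), Trpv5 (0.975), Kl (0.919), Casr (0.897), Hadh (0.925), Cox7c (0.970), Gpx4 (0.932), C2 (0.845), Lnpep (0.843) and Nln (0.898). C57 library 4 was distant for Ccn1 (0.840) and Agtr1a (0.899).

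The level of Tusc3 in Hap-I minus that in Hap-II adults fed alike was -3.336 on the log2 scale. In the 8 Hap-I libraries whose labels name no diet, which entered no comparison, the median TPM of 12 neuronal genes was 501 or more, against at most 1.01 in C57.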

How the results depend on the processing

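No paired analysis was possible because the titles of the groups (1 to 4 and 9 to 12) have no number in common. The scaling decided the balance of directions. On TPM as deposited 8009 genes passed, 294 higher and 7715 lower, and with mitochondrially encoded genes removed 540 were higher and 5498 lower. Array weights gave 8506 (4236 higher, 4270 lower). With the Y-linked covariate 531 passed (306 and 225), and 504 of them were calls of the reported fit in the same direction. In libraries without Y-linked transcripts, 1 Hap-I against 4 C57, 7 passed (2 and 5); the lone Hap-I library is assumed to vary like the other groups. Leaving out single libraries gave 2585 to 4438 calls, 1422 to 2444 higher and 1161 to 1994 lower, the fewest without C57 library 4 or Hap-I library 4 and the most without Hap-I library 1. Of the 4108 calls, all kept their sign with the Y-linked covariate and in every fit that left out a library. The mitochondrial share differed by 13.7 to 17 percentage points without single libraries.

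On TPM as deposited 73.9% of the 4108 calls kept their sign, and with mitochondrially encoded genes removed 87.5% of those tested did. Changes of sign are listed here for named genes called in the reported fit or in the alternative. On TPM as deposited they were Gk (-0.073), Sord (-0.071), Khk (-0.205), Npc2 (-0.195), Nr1h3 (-0.102), Hadh (-0.371), Atp5c1 (-0.055), Prdx3 (-0.225), Nr1d2 (-0.313) and Dnajb9 (-0.247). With mitochondrially encoded genes removed they were Hadh (-0.127), Nr1d2 (-0.078) and Dnajb9 (-0.018), and with quantile normalization Sord (-0.025) and Hadh (-0.012). Uty was at -0.053 in libraries without Y-linked transcripts. The cause was not tested. Of the 138 named genes called, 98 passed in all 8 fits without a library and 48 with the Y-linked covariate. Of the 24 named by size, these were 18 and 13. Depth is unknown, so its part in any value cannot be stated.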

Other observations

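Kap, the androgen-regulated protein of proximal tubule and among the most abundant transcripts of these kidneys, was at 19007, 68127, 79619 and 80749 deposited TPM in the Hap-I libraries and at 47985, 37560, 34274 and 25674 in C57. On that scale Hap-I library 1, the library without Y-linked transcripts, was below all controls, and the other Hap-I libraries were above them. As rescaled TPM Kap was at 20500 in Hap-I library 1 and at 38900, 23500, 22100 and 15600 in C57, so that library 1 lay within the range of the controls. The Y-linked genes Eif2s3y and Ddx3y were listed at 0 in Hap-I library 1, and 3 of 4 Hap-I libraries and 0 of 4 C57 libraries reached 5 TPM of Eif2s3y. Genes with a value above 0 numbered 17443 ± 1039 per Hap-I library and 18211 ± 191 per C57 library (SD, n = 4). Hap-I library 4 had the fewest of its group, 15975.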
